A study of Capra hircus with 6 samples.

Results

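A set of 44 genes was followed in mesenchymal stem cells from goat (Capra hircus) fat: 24 genes linked to the transcription factor ATF4, most of them in amino acid and one-carbon metabolism, and the 20 listed subunits of the cytosolic aminoacyl-tRNA synthetases. They were taken as the rows of the deposited FPKM tables whose symbol was on a written list, under the older synthetase symbols (WARS for WARS1, and so on). All 44 symbols were found among the 16262 genes used, and none was absent. One group was made up of 3 libraries of cells labelled as overexpressing TAZ, the transcriptional coactivator encoded by WWTR1 (called TAZ libraries below). The other group held 3 libraries of wild-type genotype, called control libraries. Cells of both groups were labelled as under adipogenic differentiation. No label states how TAZ was introduced, whether a line is 1 clone, the age of the donor animals or the time in culture. The study concerned TAZ in the differentiation of fat cells, and its title also names TNF-α, which no sample label mentions.

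ATF4 is the main transcription factor of the integrated stress response. Kinases that sense amino acid shortage, unfolded protein in the endoplasmic reticulum, double-stranded RNA or haem shortage phosphorylate the initiation factor eIF2, general translation falls, and the ATF4 messenger RNA is then translated more, so that ATF4 protein is set largely at translation and not by the level of its messenger. ATF4 protein switches on genes for the uptake and synthesis of amino acids, for serine and one-carbon metabolism and for many of the enzymes that load amino acids onto tRNAs. It works beside partners and successors such as DDIT3 (CHOP) and ATF5. These roles are known mainly from human and mouse cells. FPKM, the unit of all levels here, counts fragments per kilobase of gene, scaled to the total of the library.

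The libraries were deep for these genes. Stepwise spacing of the low FPKM values gave library totals from 33871397 to 37705644 counted reads, and each tested member had at least 250 reads in every library. No source used here says whether a counted read is a single read or 1 end of a pair. WWTR1 stood at 84.6, 118 and 84.2 FPKM in TAZ replicates 1, 2 and 3, against 30.2, 29.9 and 35.9 FPKM in control replicates 1, 2 and 3 (log2 fold change 1.54, SE 0.126, limma adjusted p = 6.91e-07), so the labels hold for the overexpressed gene. All 11 stromal markers listed, such as COL1A1, THY1 and PDGFRA, passed 1 FPKM, whereas 1 of 7 markers of the mature fat cell did (CIDEC), with PPARG at 0 to 0.142 FPKM in the TAZ libraries and 0.0394 to 0.0772 FPKM in the control libraries. Endothelial and epithelial markers summed to at most 1.69 FPKM in any library. The 8 leukocyte markers summed to 26.7 to 27.8 FPKM in the TAZ libraries and 13.6 to 16.8 FPKM in the control libraries, and 2 of the 8 passed the filter given next. CD14 made up 23.8 to 24.5 FPKM of this in the TAZ libraries and 8.17 to 10.9 FPKM in the control libraries, and PTPRC, the general leukocyte marker, was listed at 0 in every library. CD68, the other one above the filter, was lower, at 2.56 to 3.22 FPKM in the TAZ libraries and 4.04 to 4.87 FPKM in the control libraries, and so were CD3E and CD79A, both under 1 FPKM throughout. The 7 pericyte and smooth muscle markers summed to 48.6 to 52.6 FPKM in the TAZ libraries and 35.2 to 40.5 FPKM in the control libraries, with CNN1 and NOTCH3 above the filter. What part these markers have in the results was not tested.

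Among the members, 9 of the 14 tested enzymes of serine, one-carbon and amino acid metabolism were lower in the TAZ libraries, 3 of 7 regulators and stress effectors were higher, and ATF4 itself did not pass the test. Of the 44 members, 42 were tested, having at least 1 FPKM in at least 3 of the 6 libraries. At a limma adjusted p under 0.05 over all genes, 5 members were higher in the TAZ libraries, 15 were lower and 22 did not pass. These were 11.9% higher and 35.7% lower, where 15.7% of all 10750 tested genes were higher and 22.1% were lower, 37.9% in all. The median log2 fold change of the tested members was -0.21 and that of all tested genes was -0.050, on the log2(FPKM + 1) scale, TAZ minus control. TAZ and control values lay apart, with no overlap, for 22 members and for 48.4% of all tested genes. The balance over all genes moved with scaling: 1693 higher and 2381 lower as deposited became 2001 and 1821 with libraries scaled by their median ratio, while the members stood at 5 higher and 14 lower. In these bulk libraries, fewer cells that use a gene and less RNA per cell cannot be told apart. Separate cultures or animals are not stated for the replicates, so p-values reflect only how these libraries varied, and that variation may be technical.

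**Figure D1:**
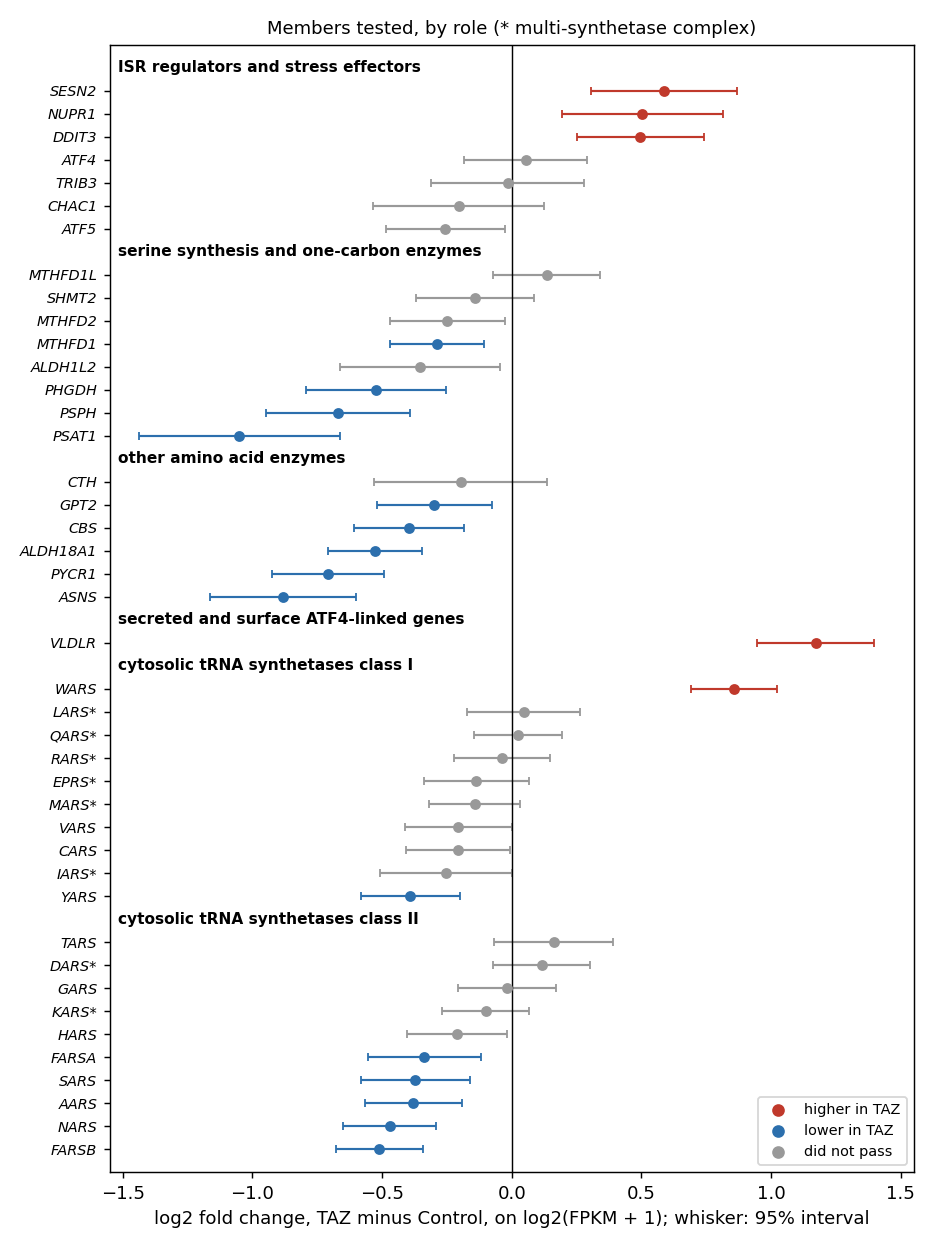
Log2 fold change of each of the 42 tested members, TAZ minus control on the log2(FPKM + 1) scale (x axis), grouped by role (y axis); points are limma estimates, whiskers 95% intervals, red is higher, blue lower, grey did not pass. VLDLR at 1.17 and PSAT1 at -1.05 are the ends of the range, and asterisks mark synthetases of the multi-synthetase complex.

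The ATF4 messenger was abundant in both groups, and its values overlapped between them. It stood at 429, 386 and 467 FPKM in TAZ replicates 1, 2 and 3, against 357, 479.9 and 404 FPKM in control replicates 1, 2 and 3. The 95% interval of the log2 fold change ran from -0.19 to 0.29 (log2 fold change 0.05, SE 0.110, limma adjusted p = 0.744). ATF5, a related factor induced in the same response, had 59.99, 59.5 and 68.6 FPKM in the TAZ libraries, against 67.1, 87.8 and 71.5 FPKM in the control libraries, with overlap between the highest TAZ library and the lowest control (log2 fold change -0.26, SE 0.106, limma adjusted p = 0.0729). It was lower past the threshold when control replicate 1 was left out (adjusted p = 0.0352).

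Of the 7 regulators and stress effectors, 3 rose, 0 fell and 4 did not pass. That is 42.9% called, all higher, where 37.9% of all tested genes were called and 15.7% were higher. DDIT3, which encodes CHOP, a factor tied to cell death under lasting stress, had 18.6, 19.4 and 21.1 FPKM in TAZ replicates 1, 2 and 3, against 12.5, 16.6 and 12.4 FPKM in control replicates 1, 2 and 3 (log2 fold change 0.50, SE 0.113, limma adjusted p = 0.00391). SESN2 encodes sestrin 2, a leucine sensor that restrains mTORC1, and it had 17.1, 16.1 and 16.1 FPKM in the TAZ libraries, against 8.55, 13.5 and 10.3 FPKM in the control libraries (log2 fold change 0.59, SE 0.130, limma adjusted p = 0.00328). Each TAZ library was above each control library for both genes, and control replicate 2 was the highest control. NUPR1, a small stress-induced chromatin protein, had 98.5, 87.9 and 118 FPKM in the TAZ libraries, against 57.3, 89.5 and 68.99 FPKM in the control libraries (log2 fold change 0.50, SE 0.144, limma adjusted p = 0.0148). Here TAZ replicate 2 lay just under control replicate 2, and the call was lost without TAZ replicate 3 (adjusted p = 0.054), without control replicate 1 (0.0619) and without a filter on low values (0.0864). TRIB3, a pseudokinase that feeds back on ATF4, averaged 9.01 ± 1.03 FPKM in TAZ libraries and 9.23 ± 2.09 FPKM in control libraries (log2 fold change -0.02, SE 0.137, limma adjusted p = 0.941). CHAC1, which breaks down glutathione and is among the genes most closely tied to ATF4 and CHOP, averaged 2.54 ± 0.419 FPKM in TAZ libraries and 3.15 ± 1.02 FPKM in control libraries (log2 fold change -0.20, SE 0.153, limma adjusted p = 0.318), and its 95% interval ran from -0.54 to 0.13.

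**Figure D2:**
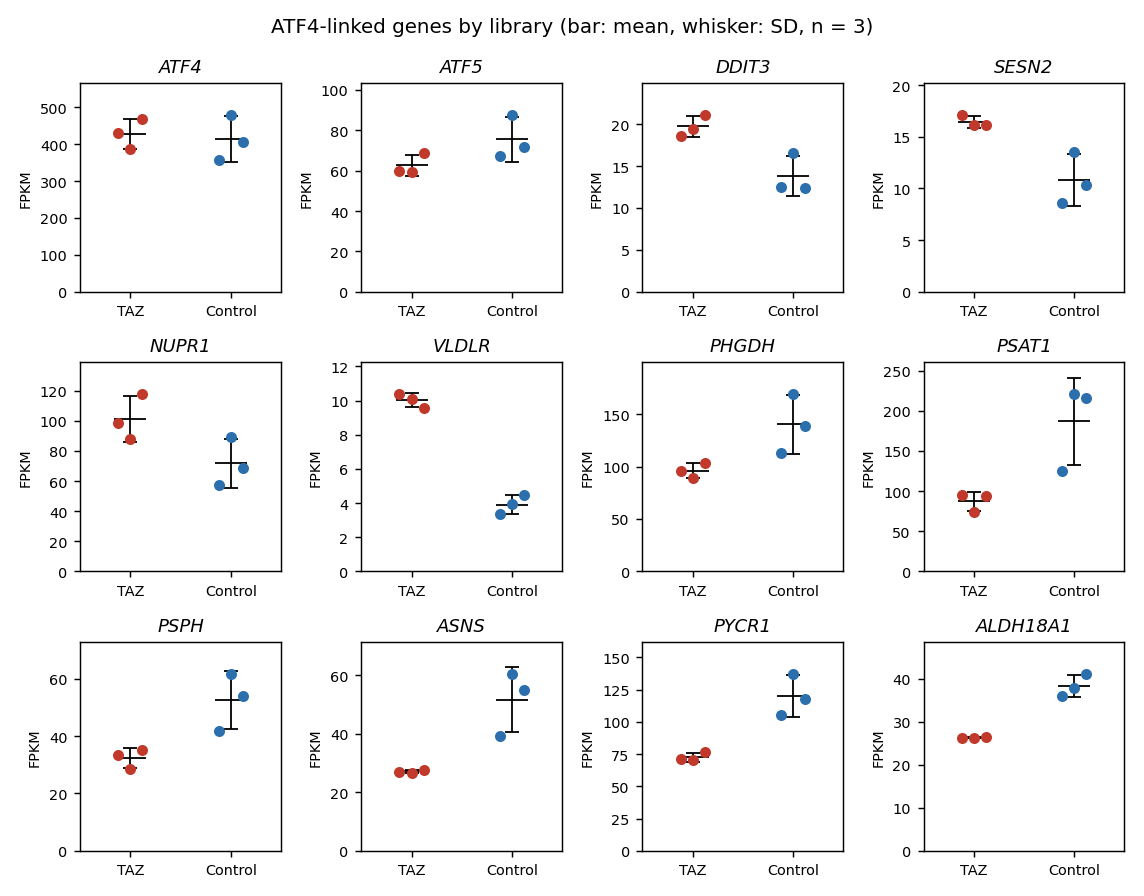
FPKM (y axis, from 0) of 12 ATF4-linked genes in the 3 TAZ libraries (red, left) and 3 control libraries (blue, right), with the mean as a bar and the SD as a whisker. ATF4 and ATF5 overlap between groups, DDIT3, SESN2 and VLDLR are higher in each TAZ library than in any control library, and PHGDH, PSAT1, PSPH, ASNS, PYCR1 and ALDH18A1 are lower.

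Against 22.1% of all tested genes, all 3 enzymes of serine synthesis were lower in the TAZ libraries. This pathway draws 3-phosphoglycerate from glycolysis and makes serine, the main donor of one-carbon units. PHGDH, its first enzyme, had 95.3, 89.2 and 104 FPKM in TAZ replicates 1, 2 and 3, against 112, 169 and 139 FPKM in control replicates 1, 2 and 3 (log2 fold change -0.52, SE 0.124, limma adjusted p = 0.00512). PSAT1, the aminotransferase of the next step, had 94.9, 73.7 and 93.8 FPKM in the TAZ libraries, against 125, 221 and 216 FPKM in the control libraries (log2 fold change -1.05, SE 0.179, limma adjusted p = 0.000499). PSPH, the phosphatase of the last step, had 33.4, 28.6 and 35.1 FPKM in the TAZ libraries, against 41.9, 61.8 and 53.97 FPKM in the control libraries (log2 fold change -0.67, SE 0.128, limma adjusted p = 0.00117). For each of them the highest TAZ library was below the lowest control library. Control replicate 1 was the lowest control for all 3, and the controls spread widely, most for PSAT1, whose SD was 54.1 FPKM around a mean of 187 FPKM.

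Of the 5 tested folate enzymes that handle the one-carbon unit, 1 passed, where 37.9% of all tested genes did. MTHFD1, the cytosolic enzyme with 3 activities, fell to 23.1 ± 0.936 FPKM in TAZ libraries, against 28.4 ± 1.21 FPKM in control libraries (log2 fold change -0.29, SE 0.0836, limma adjusted p = 0.0153), a call lost with TAZ replicate 1 left out (adjusted p = 0.0668) and with control replicate 1 left out (0.0509). MTHFD2, the mitochondrial dehydrogenase that ATF4 induces, averaged 28.1 ± 2.76 FPKM in TAZ libraries and 33.6 ± 3.50 FPKM in control libraries (adjusted p = 0.0724), and passed as lower without control replicate 1 (adjusted p = 0.0276). SHMT2, the mitochondrial serine hydroxymethyltransferase, averaged 66.8 ± 2.85 FPKM in TAZ libraries and 74.3 ± 11.4 FPKM in control libraries (adjusted p = 0.317). MTHFD1L, the mitochondrial formate-releasing enzyme, averaged 16.9 ± 1.79 FPKM in TAZ libraries and 15.2 ± 0.426 FPKM in control libraries (log2 fold change 0.13, adjusted p = 0.293), the one positive estimate among the 8 tested genes of this group. ALDH1L2, which oxidises formyl-folate in mitochondria, averaged 10.99 ± 2.08 FPKM in TAZ libraries and 14.3 ± 2.70 FPKM in control libraries (adjusted p = 0.0678). Its call depended on single libraries, being lower at an adjusted p of 0.0162 without TAZ replicate 1 and 0.0187 without control replicate 1. SHMT1, the cytosolic counterpart of SHMT2, was near 0, at 0.0807, 0.250 and 0.0957 FPKM in the TAZ libraries, against 0.101, 0.151 and 0.0341 FPKM in the control libraries, from 40 and 25 reads in all, and was not tested (adjusted p = 0.567 with no filter). Of the 8 tested genes of the group, which include the 3 of serine synthesis, 0 rose, 4 fell and 4 did not pass. Of all tested genes, 15.7% rose and 22.1% fell.

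Of the 6 other enzymes of amino acid metabolism, 0 rose, 5 fell and 1 did not pass. That is 83.3% lower, where 22.1% of all tested genes were lower. ASNS, asparagine synthetase and the classic reporter of amino acid shortage, had 27, 26.7 and 27.6 FPKM in TAZ replicates 1, 2 and 3, against 39.2, 60.6 and 55.02 FPKM in control replicates 1, 2 and 3 (log2 fold change -0.88, SE 0.130, limma adjusted p = 0.000149). The TAZ libraries were within 1 FPKM of each other, and all were below the lowest control. PYCR1 and ALDH18A1 carry out the last and the first step of proline synthesis in mitochondria. PYCR1 had 71.2, 70.2 and 76.7 FPKM in the TAZ libraries, against 105, 138 and 117 FPKM in the control libraries (log2 fold change -0.71, SE 0.0994, limma adjusted p = 9.96e-05). ALDH18A1 had 26.2, 26.2 and 26.5 FPKM in the TAZ libraries, against 36.1, 37.8 and 41.3 FPKM in the control libraries (log2 fold change -0.53, SE 0.0841, limma adjusted p = 0.000292). Neither gene overlapped between groups. CBS, which starts the transsulfuration of homocysteine to cysteine, averaged 28.99 ± 1.89 FPKM in TAZ libraries and 38.6 ± 4.48 FPKM in control libraries and fell (adjusted p = 0.0064). CTH, the next enzyme of that route, averaged 14.5 ± 0.609 FPKM in TAZ libraries and 17.2 ± 4.61 FPKM in control libraries and did not pass (adjusted p = 0.341). Its control replicate 1 stood at 11.9 FPKM, against 20.1 and 19.6 FPKM in control replicates 2 and 3, and without that library it was called lower (adjusted p = 0.00517). GPT2, mitochondrial alanine aminotransferase, averaged 12.2 ± 0.0916 FPKM in TAZ libraries and 15.3 ± 1.995 FPKM in control libraries (adjusted p = 0.0346), and this call was lost in 5 of the 6 fits that left out a library, at adjusted p-values from 0.0706 to 0.118, the exception being control replicate 1, as well as with median-ratio scaling (0.0773) and no filter (0.0701).

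VLDLR, a lipoprotein receptor that ATF4 induces and that brings triglyceride-rich particles to cells, was the member that rose most. It had 10.4, 10.1 and 9.59 FPKM in TAZ replicates 1, 2 and 3, against 3.34, 3.95 and 4.45 FPKM in control replicates 1, 2 and 3, 2.56 times the control level (log2 fold change 1.17, SE 0.105, limma adjusted p = 1.63e-06). The lowest TAZ library was more than 5 FPKM above the highest control. STC1, a secreted glycoprotein linked to calcium and stress, was below the filter, at 0.350, 0.540 and 0.612 FPKM in the TAZ libraries, against 0.448, 0.411 and 0.424 FPKM in the control libraries (adjusted p = 0.504 with no filter).

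**Figure D3:**
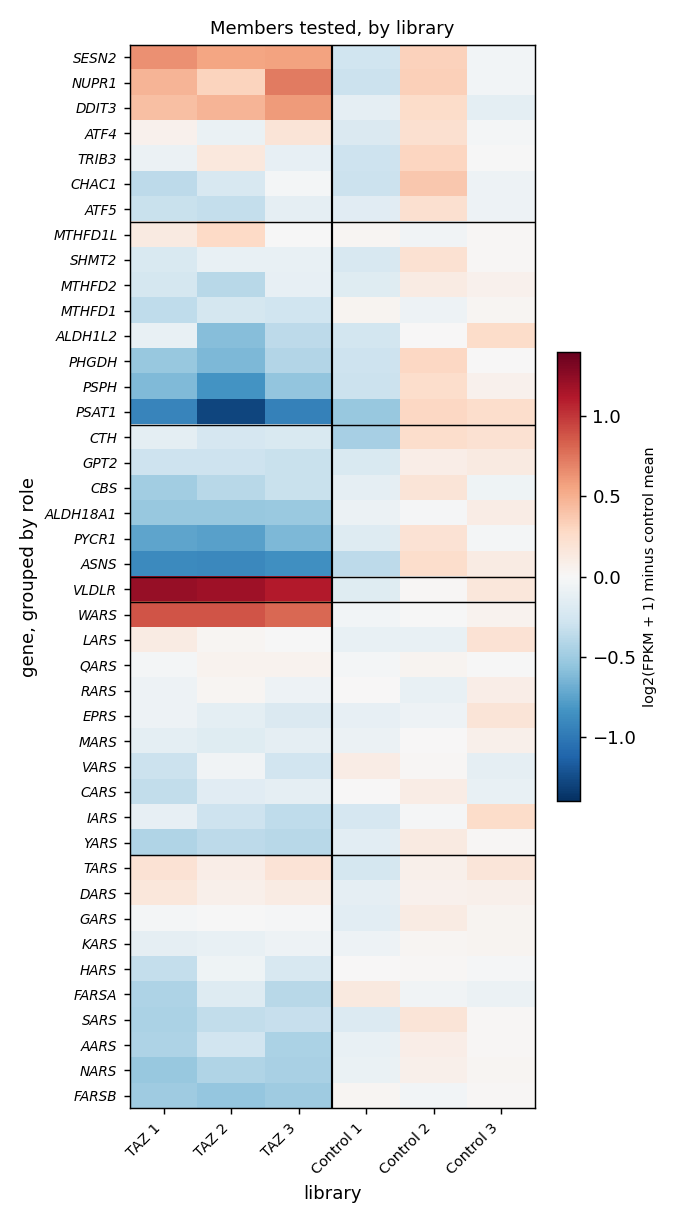
Heat map of the 42 tested members (rows, grouped by role) in the 6 libraries (columns, TAZ left of the line); colour is log2(FPKM + 1) minus the mean of the control libraries. The serine, asparagine and proline enzymes are blue in all 3 TAZ libraries, SESN2, NUPR1, DDIT3, VLDLR and WARS are red, and control replicate 1 is paler or bluer than control replicate 2 in most rows.

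Control replicate 1 was the lowest of the 3 controls for many members, and control replicate 2 the highest. The first was so for 33 of the 42 tested members (78.6%), where it held for 27.7% of all tested genes. The second held for 24 members (57.1%), against 25.4% of all tested genes. All 7 regulators and stress effectors, ATF4 included, were highest in control replicate 2 among the controls, and all 6 of the other amino acid enzymes were lowest in control replicate 1. Among serine and amino acid enzymes the median distance from the control mean on the log2 scale was -0.42, -0.46 and -0.34 in TAZ replicates 1, 2 and 3, against -0.22 and 0.19 in control replicates 1 and 2. Without control replicate 1 the members called lower numbered 18, and without control replicate 2 they numbered 14.

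The synthetases load amino acids onto their tRNAs. Of the 20 genes, all were tested, 1 rose, 6 fell and 13 did not pass. That is 35.0% called, close to the 37.9% of all tested genes, at a median log2 fold change of -0.18. The estimate was negative for 15 and positive for 5. The 10 counted as structural class I had 1 rise, 1 fall and a median of -0.14, and the 10 counted as class II had 0 rises, 5 falls and a median of -0.27. EPRS, a fused enzyme for glutamate and proline, was counted whole in class I, so the split by class is not clean. The falls of class I numbered 2 without TAZ replicate 2 or control replicate 1 and 3 without control replicate 3, and those of class II ranged from 4 to 6, and a difference between the classes was not tested.

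WARS, tryptophanyl-tRNA synthetase, was the synthetase that rose. It is also known as a gene that interferon-gamma induces. It had 153, 152 and 144 FPKM in TAZ replicates 1, 2 and 3, against 79.8, 81.7 and 85.01 FPKM in control replicates 1, 2 and 3 (log2 fold change 0.86, SE 0.0771, limma adjusted p = 1.73e-06). Libraries of a group lay close together, and the lowest TAZ library was far above the highest control. Its mean in the TAZ libraries was 1.82 times the control mean, and it held the second place among the 20 synthetases in the TAZ libraries, against the fifth place in the controls. Interferon-inducible genes of the listed set rose with it: all 8 that were tested were higher, at a median log2 fold change of 2.38. Over all tested genes 15.7% were higher. The list held 17 genes, of which 10 were found among the genes used. GBP1, GBP2, GBP4, GBP5, IDO1, CXCL9 and CXCL11 were absent. PSMB9, an inducible proteasome subunit, averaged 40.95 ± 4.79 FPKM in TAZ libraries and 0.810 ± 0.252 FPKM in control libraries (log2 fold change 4.54). CXCL10 and CIITA, both under the filter, were listed at 0 in all control libraries and averaged 0.126 and 0.0112 FPKM in the TAZ libraries. WARS2, the mitochondrial enzyme for the same amino acid, averaged 9.48 ± 1.59 FPKM in TAZ libraries and 7.19 ± 0.498 FPKM in control libraries (log2 fold change 0.35, adjusted p = 0.0337), with overlap between groups, and its call was lost without TAZ replicate 1 or 3 or control replicate 1 or 2, at adjusted p-values from 0.0815 to 0.135, and with no filter (0.0953). The part of interferon signalling in the WARS values was not tested.

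Among the synthetases that fell, log2 fold changes ran from -0.51 for FARSB to -0.34 for FARSA. FARSB, the beta subunit of phenylalanyl-tRNA synthetase, had 39.99, 38.6 and 39.9 FPKM in TAZ replicates 1, 2 and 3, against 57.7, 55.3 and 57.2 FPKM in control replicates 1, 2 and 3 (log2 fold change -0.51, SE 0.0777, limma adjusted p = 0.000197). NARS, which serves asparagine, had 48.98, 52.9 and 51.6 FPKM in the TAZ libraries, against 66.6, 75.01 and 72.4 FPKM in the control libraries (log2 fold change -0.47, SE 0.0826, limma adjusted p = 0.000634). AARS, which serves alanine, had 80.5, 90.9 and 80.3 FPKM in the TAZ libraries, against 102, 116 and 110.4 FPKM in the control libraries (log2 fold change -0.38, SE 0.0870, limma adjusted p = 0.00402). None of the 3 overlapped between groups. YARS, for tyrosine, had 47.6, 49.6 and 48.6 FPKM in the TAZ libraries, against 57.9, 69.9 and 64.9 FPKM in the control libraries (log2 fold change -0.39, SE 0.0879, limma adjusted p = 0.00358). SARS, for serine, had the highest mean of the synthetases in both groups, although its TAZ values overlapped those of WARS, and averaged 155 ± 6.999 FPKM in TAZ libraries and 201 ± 25.8 FPKM in control libraries (log2 fold change -0.37, adjusted p = 0.00899). FARSA, the alpha subunit that pairs with FARSB, averaged 12.5 ± 1.29 FPKM in TAZ libraries and 16.1 ± 1.43 FPKM in control libraries (log2 fold change -0.34, adjusted p = 0.019). Its call was lost without TAZ replicate 1 (adjusted p = 0.0739), TAZ replicate 3 (0.0695) or control replicate 1 (0.081). Of the partners in this enzyme, FARSB was the more abundant messenger per length in every library, with a lowest value of 38.6 FPKM beside a highest of 17.7 FPKM for FARSA. That gap depends on length, as the FPKM steps gave 4504 bases for FARSA and 1991 bases for FARSB. In reads, FARSA had 6155 and FARSB 8548 over the TAZ libraries, against 7499 and 11685 over the control libraries.

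Several synthetases lay close to the threshold. CARS, for cysteine, had 32.9, 37.6 and 38.4 FPKM in the TAZ libraries, against 42.2, 45.1 and 38.9 FPKM in the control libraries, with no overlap but an adjusted p of 0.0941. HARS, for histidine, averaged 34.2 ± 3.39 FPKM in TAZ libraries and 39.6 ± 0.404 FPKM in control libraries (adjusted p = 0.082), also without overlap, and VARS, for valine, averaged 38.2 ± 3.85 FPKM in TAZ libraries and 44.1 ± 3.47 FPKM in control libraries (adjusted p = 0.11). CARS passed as lower without control replicate 3 (adjusted p = 0.046), VARS without that library (0.0471) or TAZ replicate 2 (0.0468), and HARS without TAZ replicate 2 (0.0371). TARS, for threonine, averaged 46.01 ± 1.79 FPKM in TAZ libraries and 41.3 ± 6.16 FPKM in control libraries (log2 fold change 0.16), and GARS, for glycine, averaged 120.5 ± 1.06 FPKM in TAZ libraries and 122 ± 11.7 FPKM in control libraries (log2 fold change -0.02), and neither passed (adjusted p = 0.252 and 0.888).

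**Figure D4:**
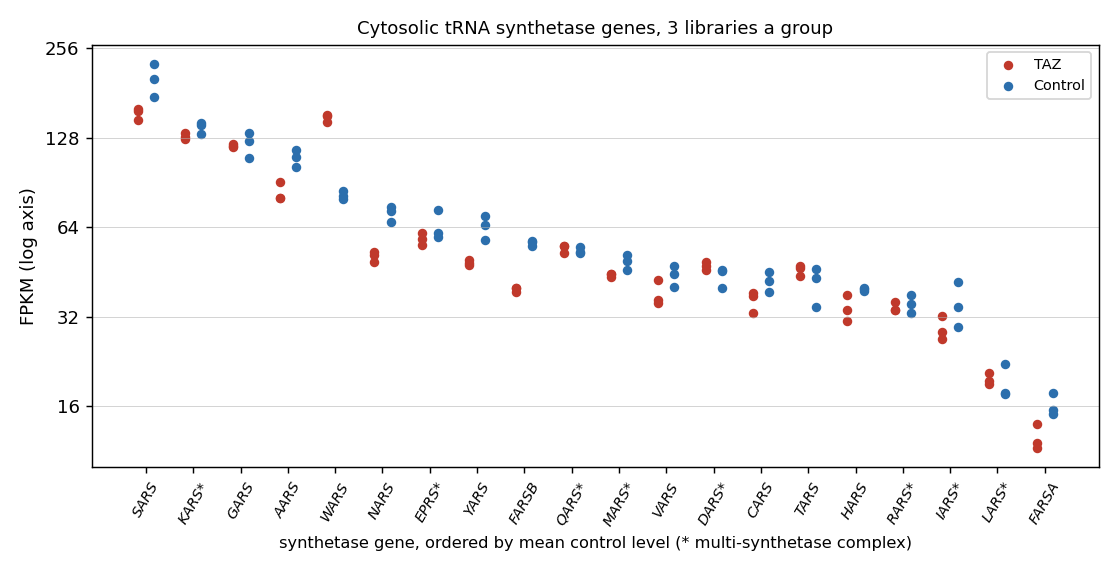
FPKM on a log axis (y) of the 20 synthetase genes, ordered by mean control level (x), with 3 TAZ libraries (red, left) and 3 control libraries (blue, right) for each gene; asterisks mark members of the multi-synthetase complex. WARS is far above its control level, and NARS, FARSB, YARS and AARS are among those below theirs. The asterisked genes did not pass the test, and neither did CARS, HARS, VARS, GARS and TARS, which have no asterisk.

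Of the 20 synthetases, 8 sit in the multi-synthetase complex of animal cells, namely EPRS, IARS, LARS, MARS, QARS, RARS, KARS and DARS. None of the 8 passed the test, and their log2 fold changes ran from -0.25 for IARS to 0.12 for DARS with a median of -0.069. Of all tested genes, 37.9% passed, 15.7% higher and 22.1% lower. Of the 12 outside the complex, 7 passed, 1 higher and 6 lower, with a median of -0.27. This grouping was made after the values were seen, so it carries no test, and a difference between the complex and the rest is not shown by it. IARS, for isoleucine, averaged 29.2 ± 2.68 FPKM in TAZ libraries and 35.3 ± 6.21 FPKM in control libraries (adjusted p = 0.11) and passed as lower without control replicate 1 (adjusted p = 0.0232), the only such call among the 8 under the 15 alternatives. QARS, for glutamine, had 52.3, 55.1 and 55.3 FPKM in the TAZ libraries, against 52.2, 54.7 and 52.9 FPKM in the control libraries and a 95% interval from -0.14 to 0.19. EPRS, the fused enzyme for glutamate and proline, averaged 58.5 ± 2.85 FPKM in TAZ libraries and 64.6 ± 7.45 FPKM in control libraries, and KARS, for lysine, averaged 129 ± 2.71 FPKM in TAZ libraries and 139 ± 5.85 FPKM in control libraries. MARS, for methionine, averaged 44.2 ± 0.659 FPKM in TAZ libraries and 48.95 ± 2.75 FPKM in control libraries, without overlap between groups (adjusted p = 0.184). LARS, for leucine, RARS, for arginine, and DARS, for aspartate, had log2 fold changes of 0.05, -0.04 and 0.12 (adjusted p from 0.318 to 0.77). A list of scaffolds of the complex and tRNA synthesis partners had 5 tested genes, of which 0 rose and 2 fell, AIMP2 and PSTK (40.0%, where 37.9% of all tested genes were called). The PSTK call was lost without TAZ replicate 1 (adjusted p = 0.0677), TAZ replicate 3 (0.0744) or control replicate 2 (0.119), with no filter (0.0742) and with limma voom on recovered counts (0.0613). The scaffold gene AIMP2 fell, averaging 24.2 ± 1.60 FPKM in TAZ libraries and 32.3 ± 2.54 FPKM in control libraries (adjusted p = 0.004), while AIMP1 and EEF1E1 did not pass (log2 fold change -0.01 and -0.03, adjusted p = 0.919 and 0.863).

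Synthetase levels spanned a wide range in both groups. The mean of SARS was 12.3 times that of FARSA in the TAZ libraries and 12.5 times in the control libraries, both in FPKM and so per length. In the order of the control means, 11 of the 19 neighbouring pairs overlapped between their control libraries, so the order is loose at those places. SARS, KARS, GARS and AARS were the 4 most abundant in the controls, each above 100 FPKM in every control library, and FARSA and LARS were the 2 least abundant in both groups. In the TAZ libraries AARS, at 83.9 ± 6.04 FPKM, was under 100 FPKM in each library.

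The upstream part of the pathway was read from a list of 14 genes for the eIF2 kinases, eIF2, eIF2B and the regulatory subunits of its phosphatase, of which 2 rose, 2 fell and 10 did not pass, at a median log2 fold change of -0.066. That is 28.6% called, where 37.9% of all tested genes were. EIF2AK2 encodes PKR, the kinase that senses double-stranded RNA and that interferon induces. It had 36.5, 31.98 and 23.9 FPKM in TAZ replicates 1, 2 and 3, against 3.35, 2.78 and 4.26 FPKM in control replicates 1, 2 and 3 (log2 fold change 2.83, SE 0.151, limma adjusted p = 8.71e-09). EIF2AK3, which encodes PERK, the kinase of the endoplasmic reticulum, rose to 11.4 ± 0.901 FPKM in TAZ libraries, against 8.58 ± 0.867 FPKM in control libraries (adjusted p = 0.0103). EIF2AK4, which encodes GCN2, the kinase for uncharged tRNA, fell to 9.50 ± 0.906 FPKM in TAZ libraries, against 12.5 ± 1.83 FPKM in control libraries (adjusted p = 0.0259). The EIF2AK4 call was lost without TAZ replicate 2 or 3 or control replicate 1 or 3, at adjusted p-values from 0.0649 to 0.0917, and with no filter (0.0755), and the number that fell in the list ranged from 0 to 2. EIF2B1, a subunit of the exchange factor eIF2B, fell (log2 fold change -0.27, adjusted p = 0.0184). Its call was lost without TAZ replicate 3 (adjusted p = 0.075), without control replicate 2 (0.0516) and with the replicate number as a block (0.0845). PPP1R15A, which encodes GADD34 and is induced by ATF4 to end the response, averaged 25.8 ± 4.43 FPKM in TAZ libraries and 23.2 ± 4.11 FPKM in control libraries (adjusted p = 0.426). Phosphorylation of eIF2 was not measured.

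Of 12 tested genes on a list of other targets of ATF4 and CHOP, 9 rose, 0 fell and 3 did not pass. That is 75.0% higher, where 15.7% of all tested genes were higher and 22.1% lower. The median log2 fold change was 0.49, and the number that rose was 5 without control replicate 1 and 5 with no filter. DDIT4, which encodes REDD1, an mTORC1 inhibitor that hypoxia also induces, had 85.6, 122 and 97.6 FPKM in TAZ replicates 1, 2 and 3, against 18.6, 27.1 and 18.9 FPKM in control replicates 1, 2 and 3 (log2 fold change 2.19, SE 0.147, limma adjusted p = 8.88e-08). CCPG1, a receptor for autophagy of the endoplasmic reticulum, averaged 38.6 ± 3.32 FPKM in TAZ libraries and 13.2 ± 1.49 FPKM in control libraries (log2 fold change 1.48). ERO1A, an oxidase of the endoplasmic reticulum, averaged 22.1 ± 2.13 FPKM in TAZ libraries and 10.97 ± 1.31 FPKM in control libraries (log2 fold change 0.95). Several of these genes answer to other signals too, and the list was written with earlier results of these data known. The genes that moved here went the other way from PHGDH, PSAT1 and ASNS.

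Of 11 tested amino acid transporters linked to ATF4, 2 rose, 2 fell and 7 did not pass, which is 36.4% called, near the 37.9% of all tested genes. SLC7A11, the cystine importer, averaged 4.45 ± 1.11 FPKM in TAZ libraries and 1.64 ± 0.548 FPKM in control libraries (log2 fold change 1.04, SE 0.161, limma adjusted p = 0.000218). SLC7A5, the transporter of large neutral amino acids, averaged 63.3 ± 4.91 FPKM in TAZ libraries and 94.9 ± 2.54 FPKM in control libraries (log2 fold change -0.58, SE 0.0835, limma adjusted p = 0.000128). Its partner chain SLC3A2 averaged 107 ± 4.17 FPKM in TAZ libraries and 106 ± 12.6 FPKM in control libraries (adjusted p = 0.897). SLC1A4, which carries alanine and serine, fell (log2 fold change -0.57, adjusted p = 0.00887, 0.0621 with no filter). SLC38A2, which carries neutral amino acids and is induced by amino acid shortage, rose (log2 fold change 0.36, adjusted p = 0.0456) with overlap between groups, and its call was lost under 7 of the 15 alternatives. The number that rose ranged from 0 to 3 under the alternatives, with 0 where genes needed a mean of 5 FPKM.

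Mitochondrial synthetases, which load tRNAs for the proteins made inside mitochondria, were tested for all 17 genes, and 3 rose, 2 fell and 12 did not pass, at a median log2 fold change of -0.014. That is 29.4% called, where 37.9% of all tested genes were. CARS2 fell to 12.4 ± 0.633 FPKM in TAZ libraries, against 21.01 ± 2.12 FPKM in control libraries (log2 fold change -0.71, adjusted p = 7.60e-05). SARS2 averaged 8.31 ± 0.252 FPKM in TAZ libraries and 6.31 ± 0.516 FPKM in control libraries and rose (log2 fold change 0.35, adjusted p = 0.0107), while the cytosolic SARS fell. The number that rose was 1 without TAZ replicate 1 or 3, without control replicate 1 or 2, and with no filter, and ranged up to 4. The number that fell was 1 without TAZ replicate 1 or 3, without control replicate 2, with median-ratio scaling and with no filter, where FARS2 was not called. Of 14 tested genes of the rest of the folate cycle and of glycine cleavage, 0 rose and 3 fell (21.4%, where 22.1% of all tested genes fell), GCSH, GLDC and GGH, led by the glycine cleavage carrier GCSH at 5.14 ± 0.172 FPKM in TAZ libraries, against 8.90 ± 0.203 FPKM in control libraries (log2 fold change -0.69, adjusted p = 5.34e-05). TYMS, thymidylate synthase, did not pass (adjusted p = 0.796).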

How the data were processed

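RNA sequencing of 6 goat libraries, 3 with TAZ overexpressed and 3 controls, was grouped by sample title. Per the labels' protocols, RNA was extracted with TRIzol, and the library kit was VAHTS Universal V6. Tools named in the submitters' processing notes are fastp, HISAT2 and HTSeq. Genome build, strand setting and treatment of shared reads were not given in the sources used here. Coordinates are therefore left out, and genes with close copies or overlapping neighbours are uncertain. The authors deposited FPKM values, 1 table a group, per the file headers and table names. Of 16285 rows, 23 with a date in place of a symbol were left out; the other 16262 symbols all matched RefSeq gene names for assembly ARS1.2, used for names only.

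FPKM steps gave each library's total and whole counts for 99.99% of rows above 0, within 0.03 of a whole number. Rows of very low FPKM can pass this check with a count of 0, as TARSL2 and DMGDH did, so that share overstates what was recovered. For 601 of 1642 short genes the genomic span, taken as the length, also gave counts within 0.03 of a whole number. Such a match does not require that the span equals the step length. The tables held 99.46% to 99.52% of the library totals. Pairs of libraries differed beyond sampling noise (chi-square per degree of freedom 18.3 to 28.6 within groups), so all 6 counted as separate. Counting precision concerns reads, not molecules.

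Values were taken as log2(FPKM + 1) without further scaling, after keeping genes at 1 FPKM or more in at least 3 libraries, and compared with limma 3.58.1 (R 4.3.3; moderated test with mean-variance trend, two-sided, Benjamini-Hochberg adjustment over 10750 genes, threshold 0.05). The fold scale understates changes of low genes. Promoter and protein sequences were not used here. The members, the related lists, the naming rule and the alternatives (pseudocounts 0.1 and 0.5, no filter, quantile normalization, median-ratio scaling, a mean of 5 FPKM or more, the replicate number as a block, robust empirical Bayes, each library left out) were chosen with earlier results of these data known. Values in every library are given for ATF4, ATF5, DDIT3, ASNS and WARS, and for the 3 members of each role group with the lowest adjusted p; in related lists, genes of low adjusted p in either direction were preferred. Genes named beyond that rule (among them GARS, SHMT1, QARS, PPP1R15A, SLC3A2, SLC38A2, WARS2, AIMP1, EEF1E1 and TYMS) were chosen after their values were seen. A limma voom fit of the recovered counts was added later.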

Additional observations from a re-analysis of the deposited data

How the results depend on the processing

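Under 15 alternatives, 589 of 629 member values kept their direction and their side of the threshold, 17 lost a call, 11 gained one and 12 changed sign, none of these a called member. Of the 20 called members, 16 (4 higher, 12 lower) were called the same way under every alternative, and NUPR1, MTHFD1, GPT2 and FARSA were not. With a library left out, members higher ran from 4 to 5 and members lower from 13 to 18, and synthetases higher stayed at 1 and synthetases lower ran from 5 to 8. With the limma voom fit of recovered counts, chosen after seeing the data, 5 members were higher and 15 lower. These counts stayed within 1.5 times their reported values, but the fall count of class I synthetases did not, as given with it. Sign changes concerned values near 0, printed as log2 fold changes. With a library left out, ATF4 ran from -0.048 to 0.164 (-0.013 without TAZ replicate 3), TRIB3 from -0.162 to 0.133 (0.020 and 0.032 without TAZ replicates 1 and 3), LARS from -0.008 to 0.149 (-0.003 without control replicate 2), RARS from -0.088 to 0.012 and GARS from -0.095 to 0.040. With median-ratio scaling TRIB3 was 0.032, RARS 0.015 and GARS 0.034. The cause was not tested.

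Same-numbered libraries did not vary together, with correlations of their deviations from the group mean of -0.436, -0.112 and -0.403 for numbers 1, 2 and 3. With 3 libraries a group such correlations are tied to each other, so they cannot decide whether the numbers pair the libraries. Across numbers, TAZ replicate 1 varied with control replicate 3 (0.691), TAZ replicate 3 with control replicate 2 (0.552) and TAZ replicate 2 with control replicate 1 (0.534). The remaining pairs ran from -0.376 to -0.086. Whether the groups share such a structure was not tested, and the replicate block follows the numbers only. With the replicate block, 5 members were higher and 14 lower, and 1548 and 1964 of all genes. MTHFD1 and GPT2 were then not called (adjusted p = 0.0607 and 0.0605), and ALDH1L2 was called lower (0.0236). Depth did not limit the tested members, but SHMT1 had 40 reads over the TAZ libraries and 25 over the control libraries.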

Other observations

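Chaperones of the endoplasmic reticulum, which other arms of the unfolded protein response induce, were called about as often as all tested genes, at 37.5% against 37.9%. Of 16 tested genes, 3 rose, 3 fell and 10 did not pass, at a median log2 fold change of 0.026. CALR, calreticulin, averaged 1074 ± 51.9 FPKM in TAZ libraries and 1451 ± 43.95 FPKM in control libraries (log2 fold change -0.43, limma adjusted p = 0.00102), and HSPA5, which encodes the chaperone BiP, averaged 384 ± 16.1 FPKM in TAZ libraries and 459 ± 24.8 FPKM in control libraries (log2 fold change -0.25, adjusted p = 0.0251). The HSPA5 call was lost under 6 of the 15 alternatives, at adjusted p-values from 0.0535 to 0.099. DNAJC3, a co-chaperone that also inhibits PKR, averaged 25.01 ± 0.858 FPKM in TAZ libraries and 19.6 ± 1.98 FPKM in control libraries (log2 fold change 0.34, adjusted p = 0.0113). The number that rose was 0 without control replicate 1 and 1 without TAZ replicate 1, TAZ replicate 2 or control replicate 2. It was also 1 with no filter and with the replicate block. The number that fell was 1 without TAZ replicate 1, with median-ratio scaling and with the replicate block. These counts thus rest on single libraries and on the choice of scaling, filter and model.

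Most proliferation markers did not pass. Of 15 tested, 2 rose (CDK1 and CCNA2), 0 fell and 13 did not pass. That is 13.3% called, where 37.9% of all tested genes were. The rises numbered 0 without TAZ replicate 1 or control replicate 2 and 1 without TAZ replicate 2, and without control replicate 2 there were 2 that fell. MKI67 averaged 23.6 ± 3.55 FPKM in TAZ libraries and 27.5 ± 4.63 FPKM in control libraries (adjusted p = 0.236), and PCNA averaged 66.1 ± 2.93 FPKM in TAZ libraries and 58.3 ± 3.15 FPKM in control libraries (adjusted p = 0.103).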
